A study of Mus musculus with 22 samples.

Results

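The genes described here are Ackr2, Camk2n1, Slc39a4, Neurod4, Plekhm3, Eci1, Dram2 and Fer, 8 of the 52636 gene rows of a count table from mouse B cell lymphomas. They were listed by name because their levels in MCL-like primary tumours, tumours that resemble mantle cell lymphoma by immunophenotype, stood above those in other primaries and because their ordinary roles lie largely outside B cell identity. Levels in the primary tumours are therefore a description of how the genes were chosen, and tests are given only for the transplants and for a comparison between non-MCL tumours.

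The 22 libraries came from 15 mice of mixed 129/C57Bl6 background, in all of which the Mb1 promoter drove Cre recombinase (Mb1Cretg/+), which acts in early B lineage cells, on floxed p53 alleles (p53fl/fl). The MCL-like primaries (4 libraries, 4 mice) and the Ccnd2 non-MCL primaries (3 libraries, 3 mice) also carried the R26-Ccnd2tg/tg transgene for cyclin D2, while the p53-only primaries (7 libraries, 6 mice, all non-MCL) did not. MCL-like transplants (6 libraries from the tumours of 4 mice) and Ccnd2 non-MCL transplants (2 libraries from the tumour of 1 mouse) had grown in NSG hosts, which lack mature T, B and NK cells but keep erythroid and myeloid cells. Every group thus shares the p53 deletion, and no group holds normal B cells. The ages of the mice were not given in the labels. Tumour sites differed between groups. The MCL-like primaries were spleen or mesenteric, the Ccnd2 non-MCL primaries spleen or mediastinal, and the p53-only primaries spleen, mediastinal, thymoma or labelled only as lymphoma. All transplants were spleen samples. For 6 MCL-like transplants the sample title reads non-MCL while the immunophenotype field reads MCL-like, and the field was followed. The non-MCL transplant comparison rests on 1 tumour whose primary was not analysed here.

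Library totals ran from 2693399 to 8146613 counts. Levels are given as CPM, each count as a share of its library total on the usual scale, and mouse values sum the libraries of 1 mouse at 1 stage. B cell markers summed to at least 1346 CPM in every library. Of these 8 markers, 5 had higher fitted values in MCL-like than in all non-MCL primaries. Only Ms4a1 passed edgeR's quasi-likelihood test. It rose from 168 ± 190 CPM (SD, 9 non-MCL mice) to 1418 ± 441 CPM (4 MCL-like mice). Its log2 fold change was 3.18 ± 0.84 (SE), with an adjusted p of 0.0425 in that test. The call was lost in 9 of 13 fits with a mouse left out. The part of B cell content in the levels of the 8 genes was not tested. Erythroid markers summed to 23394 to 111150 CPM in the MCL-like primaries, against 3140 to 32402 CPM in the Ccnd2 non-MCL primaries and 89.0 to 38637 CPM in the p53-only primaries. T and NK cell markers summed to 72.9 to 228 CPM in the MCL-like primaries, 19.5 to 87.2 CPM in the Ccnd2 non-MCL primaries and 5.59 to 604 CPM in the p53-only primaries. In the MCL-like transplants erythroid markers summed to 276 to 118933 CPM, and T and NK markers summed to 16.4 to 45.6 CPM, below the 50.1 and 65.3 CPM of the Ccnd2 non-MCL transplants. Markers were also summed for tissues in which some of these genes are best known. Lymphatic endothelium markers (5 genes, Ccl21a at 0 in every group) summed to 0.537 to 86.5 CPM in the MCL-like primaries, 6.68 to 57.0 CPM in the Ccnd2 non-MCL primaries, 1.44 to 14.6 CPM in the p53-only primaries and 0 to 66.4 CPM in the MCL-like transplants, and their part in the Ackr2 levels was not tested. Neuron markers (9 genes) summed to 7.73 to 21.2 CPM in MCL-like primaries, with Nefl and Elavl4 at 0, 39.4 to 62.0 CPM in Ccnd2 non-MCL primaries and 5.59 to 74.4 CPM in p53-only primaries. Intestinal epithelium markers (9 genes) summed to at most 5.11 CPM in any primary, with Alpi, Fabp2, Cdx2 and Krt20 at 0 in all primary groups, and to 0 to 27.5 CPM in the MCL-like transplants. The high sums, 27.5 and 19.8 CPM, were those of transplants 1 and 2, from the mouse of primary replicate 1. In bulk tumour RNA, fewer cells of a type and less RNA per cell cannot be told apart.

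As background, the 8 genes belong to separate pathways. Ackr2 encodes an atypical chemokine receptor that binds and removes inflammatory CC chemokines without signalling through G proteins, and it is known in lymphatic endothelium and in innate-like B cells. Camk2n1 encodes a small inhibitor of the calcium/calmodulin-dependent kinase CaMKII. Slc39a4 encodes ZIP4, the zinc importer of the intestine. Neurod4 is a basic helix-loop-helix (bHLH) transcription factor of neuronal differentiation. Plekhm3 is a pleckstrin homology domain protein of a family known for work at late endosomes and lysosomes. Eci1 is a mitochondrial isomerase that handles unsaturated fatty acids during beta-oxidation, Dram2 a lysosomal membrane protein linked to autophagy, and Fer a cytoplasmic tyrosine kinase.

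The term "switched on" fitted only some of the genes. Ackr2 and Neurod4 were at or near 0 in most non-MCL tumours. Camk2n1 and Slc39a4 were low but counted in every non-MCL library. Plekhm3, Eci1, Dram2 and Fer were present in all of them, and Eci1 and Fer overlapped between MCL-like and non-MCL primaries.

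**Figure D1:**
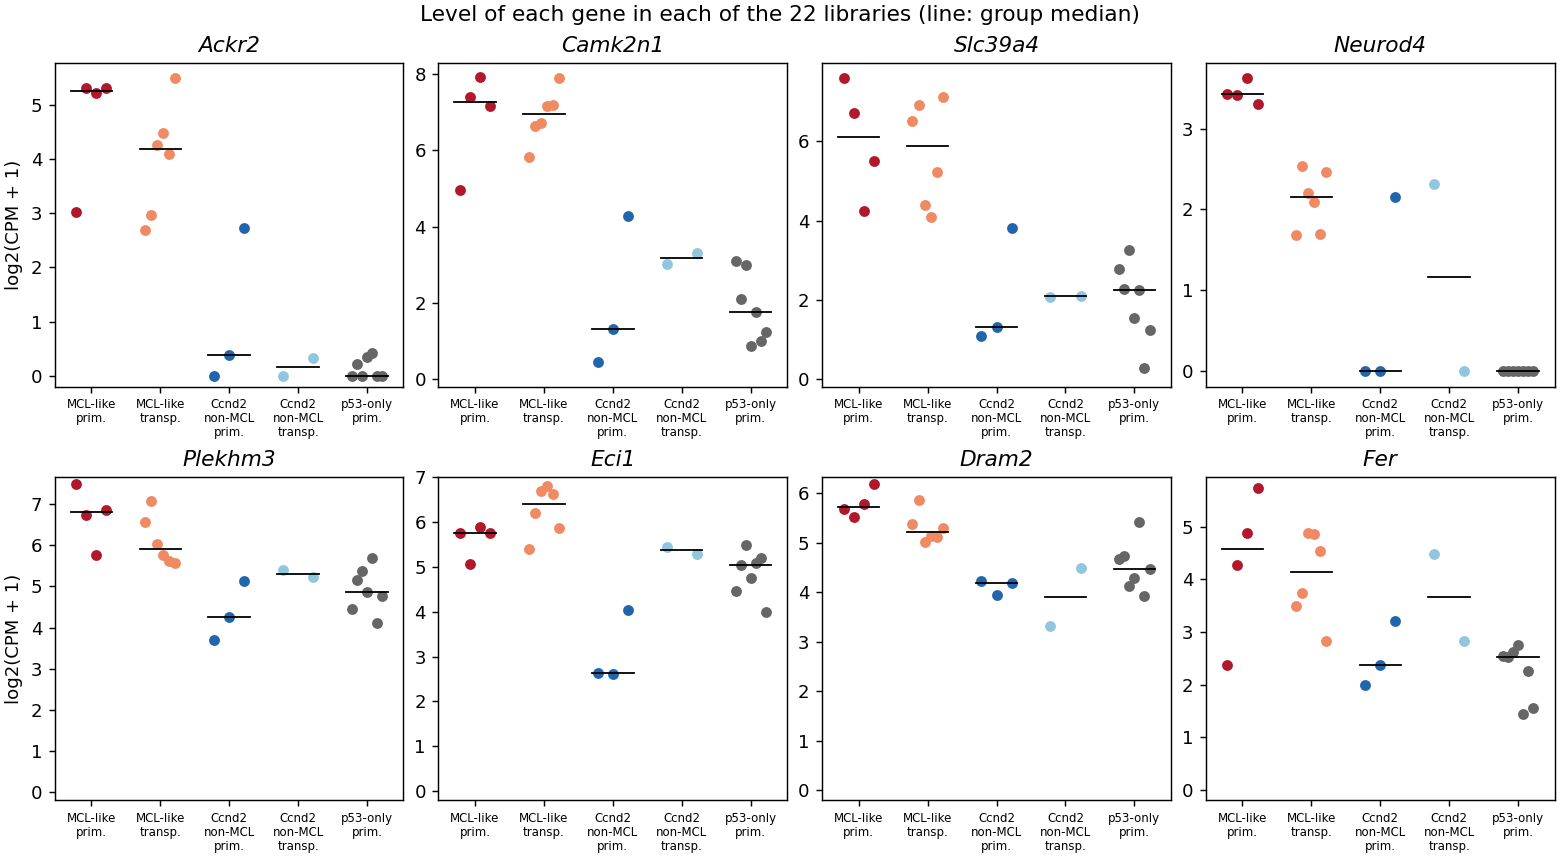
Level of each gene, as log2(CPM + 1), in each of the 22 libraries by group. Points are libraries and lines are group medians. Ackr2 and Neurod4 sit at or near 0 in most non-MCL libraries, whereas Plekhm3, Eci1 and Dram2 are present in every group.

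Ackr2 (chromosome 9, 121898355 to 121911074, plus strand, GRCm38) had 7.14, 38.4, 36.1 and 38.4 CPM in the MCL-like primaries, replicates 1 to 4. The Ccnd2 non-MCL primaries had 0, 0.300 and 5.65 CPM, and the 7 p53-only libraries ranged from 0 to 0.341 CPM with a median of 0. In total 463 Ackr2 counts came from MCL-like primaries and 3 from p53-only primaries, a ratio of pooled levels of 311 (95% exact binomial interval 106 to 1514, counting error only). MCL-like replicate 1 was the lowest of its group, yet above every non-MCL primary. The Ccnd2 non-MCL replicate 3 was the only non-MCL library above 1 CPM.

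Neurod4 (chromosome 10, 130268152 to 130280240, minus strand) had 9.81, 9.71, 11.4 and 8.87 CPM in the MCL-like primaries, from 148 counts. It had 0, 0 and 3.44 CPM in the Ccnd2 non-MCL primaries and no count in any of the 7 p53-only libraries. Against the limit of 3 counts over the p53-only libraries, 0.0993 CPM, the MCL-like level was at least 99.4-fold higher. The 4 MCL-like primaries lay close together, at 9.94 ± 1.06 CPM (SD, n = 4 mice), for a gene with few counts.

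The stretch just upstream of the start site is shown for Ackr2, Neurod4 and Plekhm3, whose windows held no annotated exon, because the first pair are the near-silent genes and Plekhm3, for contrast, was present in every tumour. Capitals mark CpG dinucleotides, and the letters are the RefSeq reference of GRCm38.p6, 5′ to 3′ on the gene's strand.
Ackr2, chr9:121898105-121898354: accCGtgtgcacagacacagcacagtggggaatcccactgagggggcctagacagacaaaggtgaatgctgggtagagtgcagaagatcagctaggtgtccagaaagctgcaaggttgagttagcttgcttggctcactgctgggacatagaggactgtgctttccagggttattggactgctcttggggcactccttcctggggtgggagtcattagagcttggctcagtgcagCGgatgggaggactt
Neurod4, chr10:130280255-130280504: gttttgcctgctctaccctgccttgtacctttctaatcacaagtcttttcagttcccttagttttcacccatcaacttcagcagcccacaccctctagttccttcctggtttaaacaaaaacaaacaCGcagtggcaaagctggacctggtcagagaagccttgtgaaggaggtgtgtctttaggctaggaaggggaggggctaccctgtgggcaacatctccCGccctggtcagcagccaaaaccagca
Plekhm3, chr1:64956825-64957074: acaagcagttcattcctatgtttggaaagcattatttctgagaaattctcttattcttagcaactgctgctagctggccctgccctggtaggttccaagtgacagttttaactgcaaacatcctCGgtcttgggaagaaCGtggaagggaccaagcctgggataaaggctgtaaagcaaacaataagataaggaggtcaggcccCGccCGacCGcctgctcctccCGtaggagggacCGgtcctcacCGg
Over these 250 bases Ackr2 and Neurod4 each held 2 CpGs and Plekhm3 held 8, against a median of 6 over 32851 mouse promoters. A fraction of 16.6% of promoters had a lower CpG observed-to-expected ratio than Ackr2, 18.5% than Neurod4 and 58.8% than Plekhm3. A second listed start of Neurod4, whose window overlaps an annotated exon of the gene, held 7 CpGs with 50.3% of promoters below it, so the low CpG content of Neurod4 depends on the start used. Eci1, Dram2 and Fer (its first listed start) held 11, 21 and 26 CpGs, in windows that overlap exons. 4 motifs were searched on both strands: CANNTG (E-box, found in 66.2% of promoters), TGANTCA (AP-1, 6.75%), ACAAT (SOX, 27.7%) and TATAAA (core promoter, 12.4%). None of these letters occurred in the Ackr2 window or in either Neurod4 window, and Plekhm3 held 2 E-box matches and 1 SOX match. Promoter entries matched 6 of the 8 genes.

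Camk2n1 (chromosome 4, 138454314 to 138460123, plus strand) had 30.0, 166, 240 and 141 CPM in the MCL-like primaries. The Ccnd2 non-MCL primaries had 0.371, 1.499 and 18.3 CPM. The p53-only libraries ran from 0.824 through a median of 2.38 to 7.61 CPM. No non-MCL primary reached the lowest MCL-like primary, again replicate 1, and the nearest was again Ccnd2 non-MCL replicate 3.

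Slc39a4 (chromosome 15, 76612383 to 76617384, minus strand) had 195, 105, 18.0 and 44.3 CPM in the MCL-like primaries. Here replicate 1, lowest for Ackr2 and Camk2n1, was the highest. Its intestinal marker sum, 4.76 CPM, was also the highest of the MCL-like primaries. Other libraries were mixed in this respect. MCL-like transplants 1 and 2, from the mouse of replicate 1, had sums of 27.5 and 19.8 CPM, with 90.1 and 120 CPM of Slc39a4. MCL-like transplant 6, at 138 CPM of Slc39a4, had a sum of 1.26 CPM. MCL-like replicate 2, at 105 CPM of Slc39a4, had a sum of 1.90 CPM. The p53-only replicate 5 had a sum of 5.11 CPM and 3.75 CPM of Slc39a4. The part of intestinal cells in the Slc39a4 level was not tested. Levels were 1.11, 1.499 and 13.1 CPM in the Ccnd2 non-MCL primaries, and 0.200 to 8.64 CPM with a median of 3.75 in the p53-only libraries. The groups did not overlap, although MCL-like replicate 3 and Ccnd2 non-MCL replicate 3 were close, at 18.0 and 13.1 CPM.

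Plekhm3 (chromosome 1, 64785983 to 64956824, minus strand) had 178, 106, 53.8 and 116 CPM in the MCL-like primaries, 11.9, 18.0 and 34.1 CPM in the Ccnd2 non-MCL primaries, and 16.4 to 50.4 CPM (median 28.3) in the p53-only libraries. The lowest MCL-like primary thus lay just above the highest p53-only library.

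Dram2 (chromosome 3, 106547798 to 106575890, plus strand) had 50.0, 44.9, 53.8 and 72.0 CPM in the MCL-like primaries. The Ccnd2 non-MCL primaries had 17.8, 14.4 and 17.3 CPM, and the p53-only libraries 14.2 to 41.9 CPM with a median of 21.2. Its span overlaps Cept1 on the opposite strand and Gm43071 on its own strand. Whether the authors' counting used strand was not given in the sources used here, so Dram2 counts are less certain.

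Eci1 (chromosome 17, 24426641 to 24439348, plus strand) had 52.6, 32.5, 57.6 and 52.7 CPM in the MCL-like primaries. The Ccnd2 non-MCL primaries were far lower, at 5.20, 5.10 and 15.5 CPM, but the p53-only libraries reached from 15.0 to 43.8 CPM with a median of 32.0. Among primaries, Eci1 therefore separated MCL-like from Ccnd2 non-MCL tumours and not from p53-only tumours.

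Fer (chromosome 17, 63863062 to 64139496, plus strand) had 4.16, 18.4, 28.5 and 52.4 CPM in the MCL-like primaries. It had 2.97, 4.20 and 8.22 CPM in the Ccnd2 non-MCL primaries and 1.70 to 5.77 CPM (median 4.79) in the p53-only libraries. MCL-like replicate 1 lay inside the non-MCL range, so the higher mean rested on replicates 2, 3 and 4.

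For 7 of the 8 genes, all but Fer, every MCL-like primary lay above every Ccnd2 non-MCL primary, as for 5.66% of all genes. For 6 of the 8 genes all 4 MCL-like primary mice lay above all 9 non-MCL primary mice, the exceptions being Eci1 and Fer, and 1.82% of all genes had that pattern. The genes were chosen on these tumours, so nothing is read from these shares. The fitted log2 fold changes against all non-MCL primaries were, with SE, 5.26 ± 1.05 for Ackr2, 5.03 ± 0.77 for Camk2n1, 4.59 ± 0.76 for Slc39a4 and 4.53 ± 1.12 for Neurod4. The genes present in every group had smaller differences: 2.52 ± 0.46 for Fer, 2.24 ± 0.35 for Plekhm3, 1.58 ± 0.25 for Dram2 and 1.23 ± 0.48 for Eci1. These are given without a test.

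**Figure D2:**
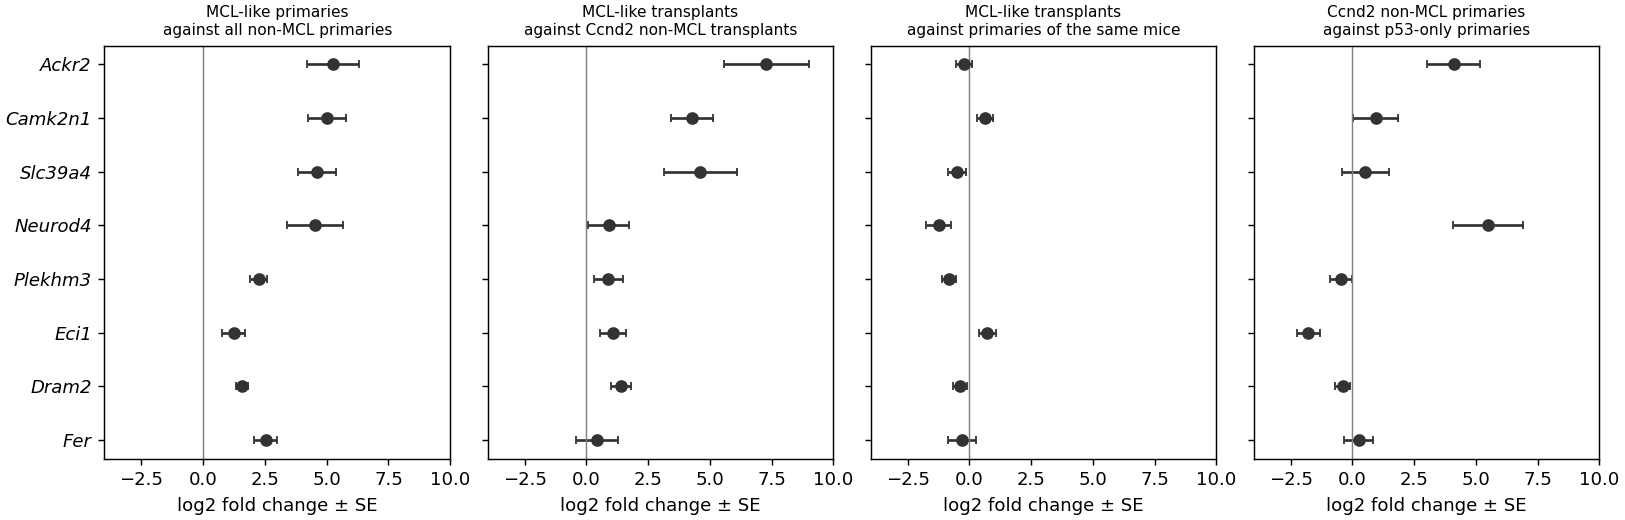
Fitted log2 fold change (x axis; bars are SE) of each gene in 4 comparisons. Ackr2, Camk2n1 and Slc39a4 lie above 4 in both the primaries, which chose the genes, and the transplants. The position of Neurod4 in the last panel depends on the prior count, since all p53-only libraries were at 0.

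The Ccnd2 non-MCL replicate 3, a spleen tumour, carried intermediate levels. Its library was the largest (8146613 counts) and the only oTP-named library among the Ccnd2 and MCL-like primaries, a prefix whose meaning was not given. The p53-only replicates 4, 5, 6 and 7 also had this prefix, so it was spread unevenly between MCL-like and non-MCL primaries. For Ccnd2 non-MCL replicate 3 the column name and sample title differ by a final letter and were taken as the same sample. The part of these features in its levels was not tested. It was the highest of the 9 non-MCL primary mice for 5 genes (Ackr2, Camk2n1, Slc39a4, Neurod4 and Fer) and stood at 18.8, 12.7, 14.5, 34.6 and 31.8% of the MCL-like primary mean for them. For Plekhm3, Eci1 and Dram2 it stood at 30.1, 31.7 and 31.4% of that mean, below the highest p53-only mouse. Over all genes, replicate 3 was the highest non-MCL primary mouse for 12.2%. Of 346 genes with every MCL-like primary above the other 8 non-MCL primary mice, it was the highest for 42.8%. Its median level for them was 35.2% of the MCL-like mean. That set held the other 8 mice low and left replicate 3 free, so the shares are not alike and nothing is read from them. The T and NK marker sum of replicate 3, 87.2 CPM, was the highest of the Ccnd2 non-MCL primaries. Its erythroid sum was 19021 CPM, and the part of these cells in its levels was not tested. Without this library, the log2 difference between MCL-like and Ccnd2 non-MCL primaries was 7.39 in place of 3.91 for Ackr2, 7.30 in place of 4.49 for Camk2n1 and 6.30 in place of 4.27 for Slc39a4. Ccnd2 non-MCL replicates 1 and 2 then held 0 and 1 counts of Ackr2, 1 and 5 of Camk2n1 and 3 and 5 of Slc39a4. The larger differences thus rest on few counts, and that of Ackr2 depends on the prior count.

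**Figure D3:**
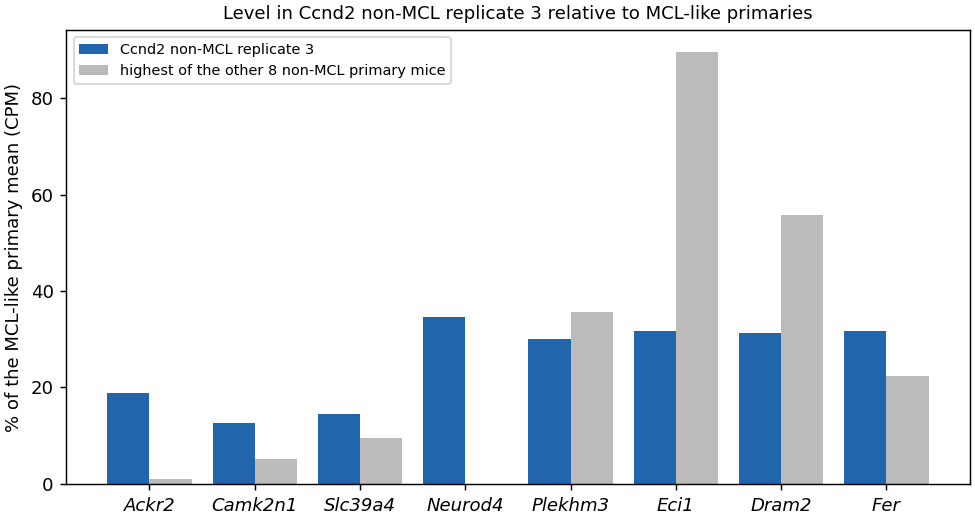
Level in Ccnd2 non-MCL replicate 3 (blue) and in the highest of the other 8 non-MCL primary mice (grey), as a percentage of the MCL-like primary mean of CPM. The blue bar exceeds the grey bar for Ackr2, Camk2n1, Slc39a4, Neurod4 and Fer.

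Between the non-MCL primaries, the comparison of Ccnd2 with p53-only tumours asked whether the genes followed the cyclin D2 transgene. None of the 8 passed edgeR's quasi-likelihood test with Benjamini-Hochberg adjustment, where 0% of 12967 genes were called (10.3% had an unadjusted p under 0.05, and DESeq2 called 115 genes). No gene of the 8 was higher in every Ccnd2 mouse than in every p53-only mouse, as 1.72% of all genes were. Ackr2 had 1.98 ± 3.18 CPM in Ccnd2 non-MCL primaries (SD, n = 3 mice) and 0.0828 ± 0.129 CPM in p53-only primaries (n = 6 mice), with a log2 fold change of 4.10 ± 1.08 (SE) and an adjusted p of 0.311. Almost all of it came from replicate 3, without which the log2 fold change was 0.64. Neurod4 was counted only in replicate 3 among these tumours, at least 19.9-fold above the limit for the p53-only libraries as a pooled group level (adjusted p = 0.332). Eci1 was lower with the transgene, at 8.59 ± 5.96 against 28.9 ± 10.4 CPM, a log2 fold change of -1.80 ± 0.46 with an adjusted p of 0.311. DESeq2 called Eci1 lower (adjusted p = 0.0377) and Ackr2 higher (0.0480). Both the Ccnd2 non-MCL and the p53-only primaries were among the tumours that chose the genes, so this comparison is not independent of the choice in either arm.

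The transplants are libraries apart from the primaries, but their levels were known when the genes were listed, and 3 of the 4 MCL-like transplant mice carried tumours of primaries described above. The tests below are therefore not fully independent of the choice. Across MCL-like transplant replicates 1 to 6, Ackr2 had 5.49, 6.78, 18.0, 21.3, 16.1 and 44.0 CPM, and the Ccnd2 non-MCL transplants had 0 and 0.254 CPM. The pooled ratio, from 508 counts against 1, was 153 (95% exact binomial interval 27.4 to 6063, counting error only). Camk2n1 had 55.6, 98.0, 104, 143, 144 and 236 CPM, against 7.14 and 8.90 CPM. Every MCL-like transplant library was above both non-MCL transplants for both genes.

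Slc39a4 had 90.1, 120, 19.99, 16.1, 36.7 and 138 CPM in the MCL-like transplants, against 3.17 and 3.30 CPM in the non-MCL transplants. Dram2 had 40.7, 56.8, 31.1, 34.1, 33.6 and 38.3 CPM, against 8.99 and 21.6 CPM. Plekhm3 had 93.4, 135, 64.9, 53.1, 48.4 and 46.9 CPM, against 41.0 and 36.6 CPM. For these genes too no library overlapped, but the Plekhm3 gap between the nearest libraries was small.

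Eci1 had 40.9, 72.0, 101, 110, 97.2 and 56.6 CPM in the MCL-like transplants, against 42.3 and 38.1 CPM. Neurod4 had 2.20, 4.80, 3.61, 3.28, 2.23 and 4.49 CPM, against 3.97 and 0 CPM. Fer had 10.3, 12.4, 28.5, 28.2, 22.1 and 6.11 CPM, against 21.4 and 6.10 CPM. For these genes the libraries of the groups overlapped.

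By mouse, 7 of the 8 genes, all but Fer, were higher in each of the 4 MCL-like transplant mice than in the non-MCL transplant mouse, a pattern that 21.5% of 14397 genes shared. None of the 8 passed edgeR's quasi-likelihood test, in which 0.313% of genes were called (45 genes; 0.0625% were called as higher; 14.3% had an unadjusted p under 0.05). The log2 fold changes were 7.28 ± 1.71 for Ackr2 (SE; adjusted p = 0.149), 4.28 ± 0.84 for Camk2n1 (0.0965) and 4.62 ± 1.46 for Slc39a4 (0.251). Dram2 stood at 1.41 ± 0.40 (0.215), Eci1 at 1.07 ± 0.52 (0.409), Neurod4 at 0.90 ± 0.84 (0.671), Plekhm3 at 0.89 ± 0.59 (0.546) and Fer at 0.42 ± 0.84 (0.858). DESeq2, which called 954 genes, called Ackr2 (adjusted p = 0.000901), Camk2n1 (7.13e-08), Slc39a4 (0.000666) and Dram2 (0.0363). The test sets 4 mice against 1, which is assumed to vary like the others. The median log2 fold change of the 8 genes was 1.24, against 0.09 over all genes tested.

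The 2 non-MCL transplants, though from the same mouse, differed for 3 of the genes. Neurod4 had 15 counts in replicate 1 and 0 in replicate 2, Fer was 3.51-fold higher in replicate 1 and Dram2 2.40-fold higher in replicate 2. Ackr2, Camk2n1, Slc39a4, Plekhm3 and Eci1 were close in both. In the MCL-like pairs from 1 mouse, replicates 1 and 2 and replicates 3 and 4, no gene differed by more than 2.19-fold. Without non-MCL replicate 2 the log2 fold change of Neurod4 was -0.03 and that of Fer -0.14.

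MCL-like transplant replicate 5 came from a mouse with no primary in the table. It lay above all 10 non-MCL mice, primary or transplant, for 7 of the 8 genes, a pattern that 8.82% of 16153 genes shared. Of these mice 9 were the primaries whose low levels led to the listing, so that arm is not independent of the choice. Its levels and the highest non-MCL mouse were 16.1 and 5.65 CPM for Ackr2, 144 and 18.3 CPM for Camk2n1, and 36.7 and 13.1 CPM for Slc39a4. Neurod4 was the exception, at 2.23 CPM against 3.44 CPM. All 4 MCL-like transplant mice lay above all 10 non-MCL mice for 6 of the 8 genes, not Neurod4 and Fer, against 1.65% of all genes, with the same limit. Both counts use mouse sums and did not hold for every library. The p53-only library 5 alone had 41.9 CPM of Dram2 and 50.4 CPM of Plekhm3. MCL-like transplant 5 had 33.6 and 48.4 CPM, and transplant 6 had 38.3 and 46.9 CPM. For Eci1, MCL-like transplant 1 had 40.9 CPM, below the 43.8 CPM of p53-only library 3.

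In the 3 mice with both stages, transplant levels ran from 33.3% (Fer) to 270.2% (Fer) of the primary, and no gene of the 8 passed edgeR's quasi-likelihood test with the mouse as a block, where 0% of 12020 genes were called (5.46% had an unadjusted p under 0.05; DESeq2 called 32 genes). Neurod4 was lower in the transplants of every mouse, at 34.0, 46.3 and 38.8% of the primary (mice of primaries 1, 2 and 4), with a log2 difference of -1.23 ± 0.51 (SE; adjusted p = 0.820). Plekhm3 was also lower in all 3, at 62.8, 44.2 and 50.8% (-0.84 ± 0.28; adjusted p = 0.820). Eci1 was higher in all 3, at 103.6, 174 and 200.1% (0.72 ± 0.34; adjusted p = 0.820), and was the only gene of the 8 with all 3 transplants above all 3 primaries, against 2.84% of all genes. Ackr2 was at 84.9, 115 and 51.2% (-0.22 ± 0.32; adjusted p = 0.889).

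Camk2n1 was at 247, 142 and 87.7% (0.64 ± 0.31; adjusted p = 0.820) and Slc39a4 at 52.9, 132 and 40.7% (-0.50 ± 0.36; adjusted p = 0.835). Dram2 was also lower in all 3, at 95.5, 85.2 and 45.3% (-0.38 ± 0.29; adjusted p = 0.847). Fer was at 270.2, 33.3 and 54.1%. The genes were chosen as high in these primaries, so a lower transplant level is not independent of the choice. The order of the 3 mice was the same at both stages for 2 genes, Camk2n1 and Plekhm3, against 26.1% of all genes. All 8 erythroid markers had lower fitted values in these transplants (median log2 difference -3.62) and so did all 8 tested T and NK markers (-2.17). All 8 macrophage markers were lower as well (-0.78). The 8 B cell markers had a median of -0.51, with 2 of them higher. The part of these cells in the differences was not tested. The lower erythroid level did not hold in every library: transplants 1 and 2 summed to 118933 and 10844 CPM, against 50388 CPM in the primary of the same mouse. Transplant replicate 6, with an erythroid sum of 276 CPM and a T and NK sum of 16.4 CPM, the lowest of the MCL-like transplants in both, had the highest Ackr2, Camk2n1 and Slc39a4 of that group and the lowest Plekhm3 and Fer.

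**Figure D4:**
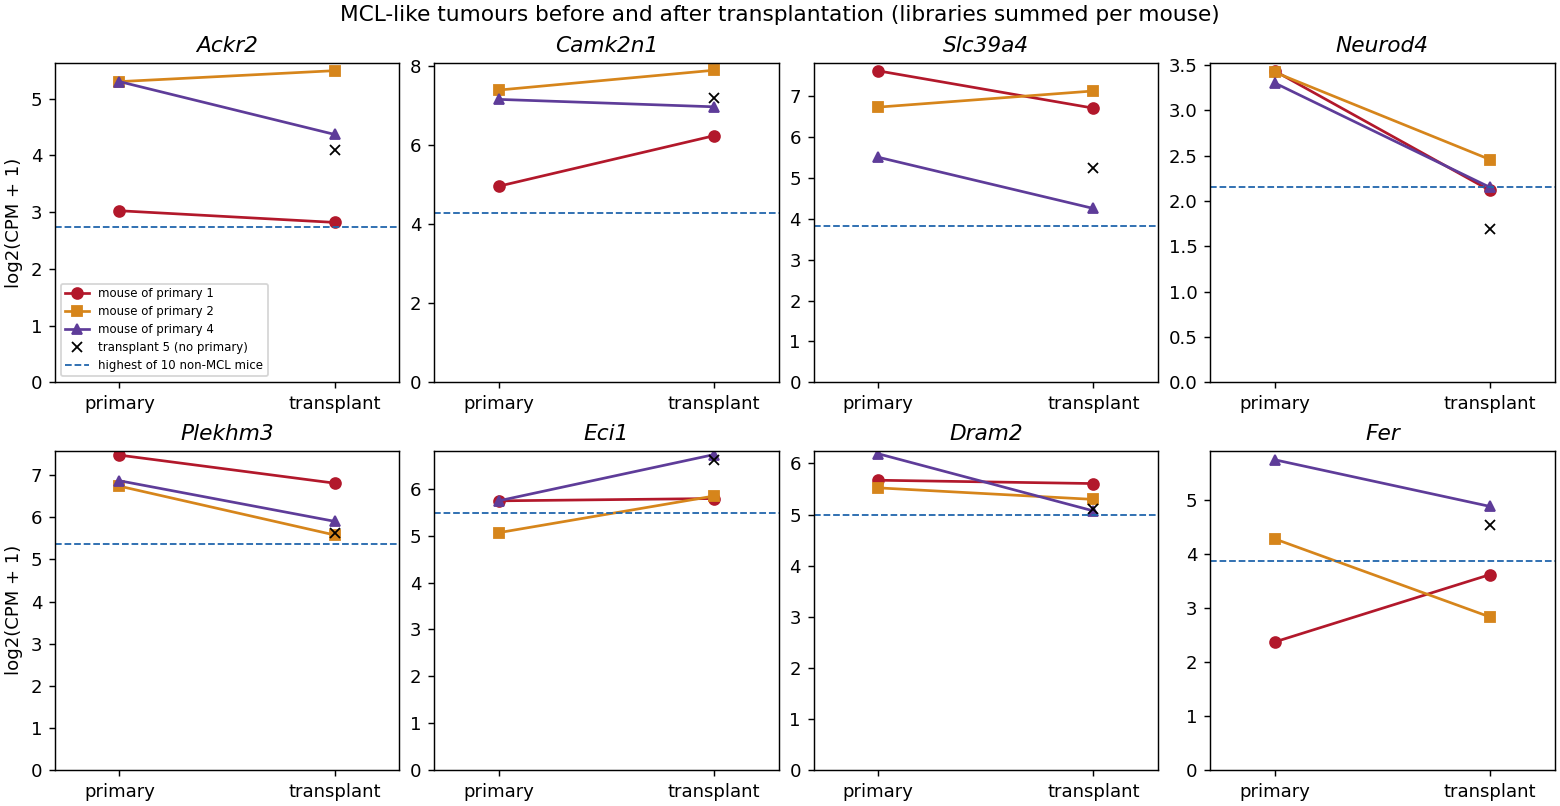
Level, as log2(CPM + 1) with libraries summed per mouse, in the primary and the transplant of the 3 mice with both. The cross is transplant replicate 5 and the dashed line the highest of the 10 non-MCL mice. The lines of Neurod4, Plekhm3 and Dram2 slope down in all 3 mice, and those of Neurod4 end around the dashed line.

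Few other genes of the same pathways passed the test. Lists of 8 pathways around the genes, without the genes themselves, held 113 tested genes in the comparison of MCL-like with all non-MCL primaries. Of these 6 passed edgeR's quasi-likelihood test, or 5.31%, near the 5.52% of all 12967 genes with higher and lower calls pooled. By direction the shares differed: all 6 were higher and none was lower, against 2.84% of all genes higher and 2.68% lower. Whether the share of higher calls exceeded its background was not tested. In the transplants 1 of 118 passed, and none did in the remaining 3 comparisons, among them MCL-like against Ccnd2 non-MCL primaries, where 0.308% of all genes were called (0.0617% as higher).

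Among chemokines and their receptors, 2 of 13 tested genes rose in the primaries and none fell. Ccr2, the receptor for monocyte-attracting CC chemokines, had 63.2 ± 13.5 CPM in MCL-like primaries (SD, n = 4 mice) and 10.2 ± 9.70 CPM in the 9 non-MCL mice, which is 2.73 ± 0.69 on the log2 scale (SE) with an adjusted p of 0.0356. Ccr2 was also the gene that passed in the transplants, at 44.9 ± 12.4 CPM against 0.907 CPM (5.71 ± 0.66; adjusted p = 0.0474). That call was lost without MCL-like transplants 3 and 4 (adjusted p = 0.163), without 5 (0.153) and without 6 (0.108). Ackr3, another atypical receptor, which takes up CXCL12, rose by 2.12 ± 0.58 (adjusted p = 0.0453) from 4.68 ± 3.69 to 19.7 ± 14.5 CPM, with overlap between the groups. The list's median log2 fold change was 1.94 in the primaries and 1.85 in the transplants, against -0.13 and 0.09 over all genes. Macrophage markers, from cells that carry these receptors, summed to 586 to 1262 CPM in MCL-like and 218 to 1616 CPM in non-MCL primaries. In the transplants they summed to 216 to 525 CPM in MCL-like and 231 and 260 CPM in non-MCL libraries. All 8 markers had higher fitted values in the MCL-like transplants (median log2 fold change 0.62), and their part was not tested at either stage.

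In the CaMK pathway 1 of 12 tested genes rose, Camk1, from 4.29 ± 2.41 to 13.1 ± 2.32 CPM (1.73 ± 0.45; adjusted p = 0.0400). CaMKII subunits, the targets of the Camk2n1 product, did not pass: the means of MCL-like and non-MCL primaries were 442 and 177 CPM for Camk2d (adjusted p = 0.125) and 2.79 and 72.9 CPM for Camk2b (0.0785). In zinc transport, 0 of 18 tested genes passed in either direction. Slc30a4, a zinc exporter, averaged 2.69 and 24.5 CPM (adjusted p = 0.0528), and Slc39a9, another importer family member, 31.3 and 81.0 CPM (0.0623).

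Of the bHLH and Id genes only 5 of 16 had enough counts to test. Neurod1, Neurod2, Neurod6 and Neurog1 had no count in any primary tumour, so these neuronal factors were not counted beside Neurod4. Tcf4, an E protein that pairs with tissue-specific bHLH factors, rose from 294 ± 174 to 1060 ± 465 CPM (1.999 ± 0.40; adjusted p = 0.0140). In fatty acid oxidation 1 of 21 tested genes rose, Ech1, which like Eci1 handles unsaturated fatty acids, from 33.7 ± 10.6 to 70.0 ± 28.0 CPM (1.19 ± 0.32; adjusted p = 0.0415). Eci2, the other isomerase, had 20.5 and 29.6 CPM (adjusted p = 0.433).

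None of 21 tested autophagy genes and 13 genes of lysosome positioning and fusion passed, in either direction. Dram1, the relative of Dram2, had 3.55 and 2.65 CPM (adjusted p = 0.692), and Plekhm1 and Plekhm2 had 19.6 and 52.0 CPM (0.111) and 73.0 and 33.6 CPM (0.161). Of 10 genes around Fer and cortactin kinases, Ptpn1, a tyrosine phosphatase, rose from 215 ± 101 to 730 ± 162 CPM (1.86 ± 0.36; adjusted p = 0.0134). Of these 6 calls in the primaries, those of Tcf4 and Ptpn1 were lost in 1 of 13 fits with a mouse left out, each time MCL-like replicate 1 (adjusted p = 0.0641 and 0.0525). Ccr2, Camk1 and Ech1 were each lost in 7 of 13 fits and Ackr3 in 10, with adjusted p up to 0.0963, 0.115, 0.147 and 0.174. Leaving out MCL-like replicate 1, 2 or 3 ended all of these 4 calls, and leaving out replicate 4 ended those of Ccr2, Ackr3 and Camk1.

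The nearest protein-coding genes on either side, lying wholly outside the span of each gene, were read as well. Overlapping genes, such as Cept1 at Dram2, were not among them. Of 11 neighbours with enough counts to test, none passed edgeR's test in any of the 5 comparisons, and their log2 fold changes in MCL-like against all non-MCL primaries ran from -1.06 to 0.88. Higd1a, 39993 bases from Ackr2, had 24.3 CPM in MCL-like and 55.3 CPM in non-MCL primaries (adjusted p = 0.0869), and Cyp8b1, 3282 bases away on the other side, was at 0 and 0.0124 CPM. Cpsf1, 4792 bases from Slc39a4, had 166 and 155 CPM. Rnps1 and Dnase1l2, 740 and 733 bases from Eci1, had 11.5 and 13.9 CPM and 5.49 and 3.19 CPM. The remaining tested neighbours, Mul1, Tespa1, Fzd5, Dennd2d, Lrif1, Fbxl17 and Pja2, lay between -0.75 and 0.48 on the log2 scale.

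**Figure D5:**
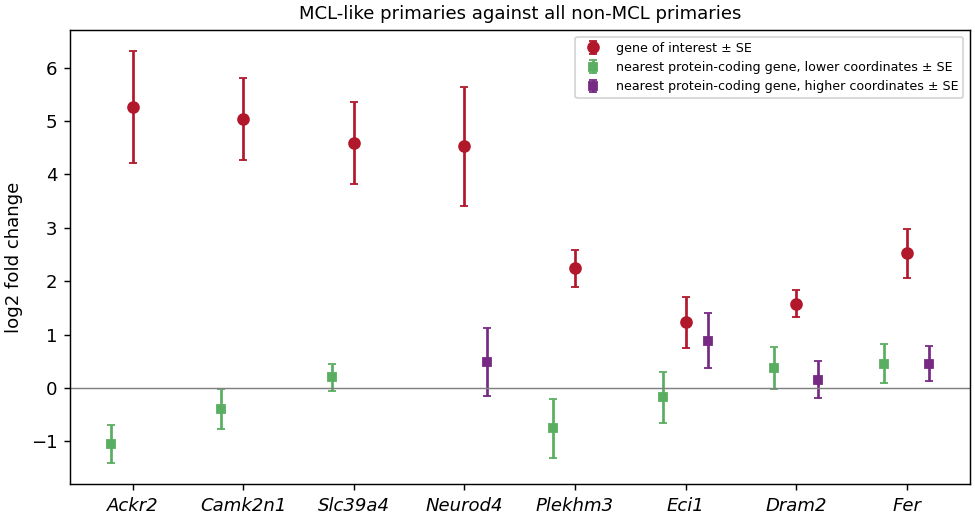
Log2 fold change, MCL-like against all non-MCL primaries, of each gene (circles) and its nearest non-overlapping protein-coding genes with enough counts (squares). Bars are SE. The squares lie between -1.06 and 0.88.

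The 8 genes varied together to different degrees over the 18 mouse-by-stage sums, which share the MCL-like and non-MCL split that chose them. Pearson's r of log2(TMM-scaled CPM + 1) ran from 0.53 (Slc39a4 and Fer) to 0.95 (Ackr2 and Camk2n1) over the 28 pairs, with a median of 0.79. The ranking of other genes left out immunoglobulin and T cell receptor segments, mitochondrially encoded genes and genes with provisional symbols. Among the 9701 genes kept, those most like Ackr2 were Il5ra (0.97), Auh (0.96) and Fras1 (0.95), and those most like Camk2n1 were Man1c1 (0.95), Ackr2 (0.95) and Il5ra (0.95). Sox5, a SOX-family transcription factor, was among the 3 nearest genes of Slc39a4 (0.93, after B4galt6 and Rarg), Neurod4 (0.91, after Tcte2 at 0.92) and Dram2 (0.90, after Miga1 at 0.90). Plekhm3 was nearest to Tank (0.93), Pik3c2b (0.91) and Gpr55 (0.90), Eci1 to Bhlhe41 (0.91), Wdr55 (0.91) and Srgn (0.90), and Fer to Afdn (0.85), Ahr (0.85) and Tnfsf15 (0.84).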

How the data were processed

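RNA was extracted from frozen aliquots of lymphoma cells and libraries were made with a QuantSeq 3′ reverse kit, per the labels' protocols. The authors deposited whole-number counts per Ensembl gene, and FastQC, STAR and GRCm38 are named in the submitters' processing notes; the counting tool, its strand setting and the annotation were not given in the sources used here. Such counts come from transcript ends, so levels are compared between samples and not between genes.

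Libraries of 1 mouse and stage were summed (18 sums). edgeR 4.0.16 (TMM scaling, filterByExpr, robust quasi-likelihood F test, Benjamini-Hochberg adjustment over all genes tested, called under 0.05) gave fold changes, with SE taken as the log2 fold change over the square root of F; DESeq2 1.42.0 was an alternative. The fit was also run on simulated counts with the same dispersion for every gene, unlike these data, and no result here rests on that run. CPM used unscaled library totals. No 2 libraries agreed within counting noise (smallest chi-square per degree of freedom 5.85 over 231 pairs). The 3 mice with both stages are paired because the labels name the primary mouse (deviations correlated at 0.21, 0.22 and 0.36). Named genes were the 8 genes, up to 3 called genes per list with the lowest adjusted p, the 3 most correlated genes per gene (mean of at least 5 CPM) and the nearest protein-coding neighbours; Vps28, beside Slc39a4, was not matched. Other list members were named after their values were seen. The 8 genes and the lists were chosen with earlier results of these data known.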

Additional observations from a re-analysis of the deposited data

Results flagged for a closer look

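Of 23 groups of 4 to 6 mice examined for a sample far from the others, 1 was flagged: Ackr2 in MCL-like primary replicate 1, at 7.14 CPM against 36.1 to 38.4 CPM in the other 3. Chance flags about 1 group in 20. The transplants of the same mouse were also the lowest of the MCL-like transplants for Ackr2, at 5.49 and 6.78 CPM. Replicate 1 was the only mesenteric tumour among the MCL-like primaries, while its transplants were spleen samples.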

How the results depend on the processing

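Of the fold changes of the 8 genes with a test, 296 recomputed values kept their direction and side of the threshold, some with another size (Neurod4 in the transplants and Ackr2 between non-MCL primaries), 13 passed where they had not and 9 reversed. Of those without a test, 286 stayed within the spread and 18 moved. Reversed log2 fold changes were: without Ccnd2 non-MCL transplant replicate 2 (chosen after seeing the data), Neurod4 -0.027 and Fer -0.14 (7.32 and 1.43 without replicate 1, the first against a library at 0 and so dependent on the prior count); in transplants against primaries without the mouse of primary replicate 2, Fer 0.33; in Ccnd2 against p53-only primaries without Ccnd2 replicate 3, Camk2n1 -1.82, Slc39a4 -1.46 and Fer -0.23 (highest with another mouse left out 1.45, 0.98 and 0.49), and without the libraries whose names begin with oTP (meaning not given), Camk2n1 -2.61, Slc39a4 -2.23 and Fer -0.51. Neurod4 gave no value for Ccnd2 against p53-only primaries in either of the last 2 settings, being at 0 in the remaining non-MCL primaries. Eci1 passed without the oTP libraries (-2.71, adjusted p = 0.0367).

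Counts of called genes over the whole table moved widely, and the cause was not tested. In MCL-like against non-MCL transplants (45) they were 89 with library-size scaling, 954 with DESeq2, 339 without the filter, 1138 with libraries as separate samples and 0 to 1083 when an MCL-like mouse was left out (156 and 134 without non-MCL transplant 1 or 2); Ackr2 and Camk2n1 passed without MCL-like transplants 1 and 2, Camk2n1 without the filter (adjusted p = 0.0247), and Ackr2, Camk2n1 and Slc39a4 with libraries as separate samples (0.0139, 0.00424 and 0.0338). For Ccnd2 against p53-only primaries (0) they were 115 with DESeq2, 2 without the filter, 116 without oTP libraries, 41 in spleen tumours and 0 to 8 with mice left out. For MCL-like against Ccnd2 non-MCL primaries (40) they were 22 with RLE scaling, 835 with DESeq2, 552 without oTP libraries, 116 in spleen tumours and 0 to 54 with mice left out (50 without p53-only replicate 1). For MCL-like against all non-MCL primaries (716) they were 1750 with DESeq2, 248 without oTP libraries, 37 in spleen tumours and 176 to 1091 with mice left out. Library-size scaling moved the median of all genes from 0.09 to -0.02 in the transplants.

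For transplants against primaries of the same mice (0) the count was 32 with DESeq2, 35 without the filter and 0 to 14 with mice left out; dropping the replicate block, so that the pairing by mouse was ignored, gave 0. With 3 mice, 1 non-MCL transplant tumour and 277 Neurod4 counts in all, small differences were not detectable.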
